A study of Mus musculus with 5 samples.

Results

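Described here are CD4 T cells that showed no RNA of 9 early genes of T cell receptor (TCR) signalling although they came from libraries in which many neighbouring CD4 cells did. A UMI (unique molecular identifier) marks 1 captured RNA molecule. Barcodes needed 500 UMIs, 300 genes and a mitochondrial share no higher than 10%, and counted as a CD4 cell with at least 1 UMI of Cd4 and none of Trdc or Foxp3. A CD4 cell counted as TCR-silent when it also held 0 UMIs of Cd69, Il2ra, Irf4, Egr1, Egr2, Egr3, Nr4a1, Nr4a2 and Nr4a3. The rule found 1631 cells in library Ga and 2060 in library Gc, 3691 of 25623 barcodes in the whole series. The same rule found 1530 cells in library Gb, which is set beside them, and 2132 and 2005 in libraries Ha and Hb.

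The study profiled mouse CD4 T cells by single-cell RNA sequencing with the 5' chemistry of 10x Genomics. They were OT-II cells, whose transgenic TCR sees an ovalbumin (OVA) peptide, isolated from mouse spleen by negative selection, the mouse being a naive OT-II animal. One sample held these T cells alone, with neither clone nor treatment, and the others held T cells kept overnight with apCAFs, fibroblasts of tumors that present antigen, sorted by FACS from pancreatic tumors of clone sKPC or rKPC. Each clone came with DMSO and with OVA, which gives 5 groups of 1 sample. The age of the animals was not given in the sources used here. The deposited counts come as 2 aggregated matrices, and a number at the end of each barcode names its library. Ga, Gb and Gc are the 3 libraries of the matrix that the labels assign to OT-II cells alone and to the sKPC coculture with DMSO. Ha and Hb are the 2 libraries of the matrix assigned to the sKPC coculture with OVA and both rKPC cocultures. The labels therefore list 2 samples for a matrix with 3 libraries and 3 for a matrix with 2, and no source used here ties a library to a sample. All 5 libraries stayed without a group, so no ratio below is an effect of coculture, clone or peptide. With 1 library each there is no replicate check and no test. The intervals are 95% intervals that cover counting error only, not differences between cells, cultures or animals. The matrices were aggregated separately, so Ha and Hb are given as levels.

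A peptide on MHC class II that engages the TCR induces the orphan receptors of the Nr4a family, the Egr transcription factors, Irf4, the early activation antigen CD69 and the interleukin-2 receptor chain CD25 (Il2ra) within hours. Interferon-gamma acts on any cell with its receptor, without the TCR. Its receptor chains Ifngr1 and Ifngr2 work through the kinases Jak1 and Jak2 and lead to transcription from GAS sites in promoters, that of Irf1 among them, and Irf1 and its relatives bind ISRE sites. Among the strongest targets are 2 families of GTPases that attack the membranes around intracellular microbes, the guanylate-binding proteins (GBPs) and the immunity-related GTPases (IRGs).

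The upstream regions of 5 such genes are shown because their RNA differed between libraries, and between them they hold both kinds of site. The motifs searched were the GAS letters TTCNNNGAA, which read the same on both strands, and the ISRE core GAAANNGAAA with its other strand TTTCNNTTTC. They were searched in the 250 bases before the annotated start of each gene in RefSeq (build GRCm38.p6). Capitals mark a match, and each sequence runs 5' to 3' on the gene's strand. Gbp2 (chr3:142620413-142620662, plus strand) has an ISRE match whose first base lies 59 bases before the start. Gbp5 (chr3:142496684-142496933, plus strand) has GAS matches at 245 and 52 bases and an ISRE match at 165. Igtp (chr11:58199306-58199555, plus strand) has a GAS match at 45 and an ISRE match at 34 bases. Irgm1 (chr11:48871421-48871670, minus strand) has ISRE matches at 30 and 24 bases that overlap. Irf1 (chr11:53769764-53770013, plus strand) has a GAS match at 90 bases.
Gbp2: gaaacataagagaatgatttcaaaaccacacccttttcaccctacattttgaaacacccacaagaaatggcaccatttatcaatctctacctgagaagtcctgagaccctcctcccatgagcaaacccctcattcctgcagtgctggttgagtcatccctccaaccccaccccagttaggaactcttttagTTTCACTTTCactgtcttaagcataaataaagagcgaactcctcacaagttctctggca
Gbp5: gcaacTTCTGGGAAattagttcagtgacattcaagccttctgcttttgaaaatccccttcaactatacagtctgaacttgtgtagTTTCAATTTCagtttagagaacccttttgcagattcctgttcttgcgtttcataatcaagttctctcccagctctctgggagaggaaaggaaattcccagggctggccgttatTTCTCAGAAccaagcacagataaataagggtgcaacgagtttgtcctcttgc
Igtp: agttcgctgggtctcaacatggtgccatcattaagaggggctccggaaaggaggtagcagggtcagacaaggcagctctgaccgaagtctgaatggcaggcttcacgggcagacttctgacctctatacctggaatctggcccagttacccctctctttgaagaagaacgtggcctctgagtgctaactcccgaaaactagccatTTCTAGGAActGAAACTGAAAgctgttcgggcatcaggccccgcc
Irgm1: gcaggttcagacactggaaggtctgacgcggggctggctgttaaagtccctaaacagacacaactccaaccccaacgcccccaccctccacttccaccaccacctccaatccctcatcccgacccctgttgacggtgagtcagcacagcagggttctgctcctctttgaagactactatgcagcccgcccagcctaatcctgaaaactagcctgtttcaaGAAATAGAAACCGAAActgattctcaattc
Irf1: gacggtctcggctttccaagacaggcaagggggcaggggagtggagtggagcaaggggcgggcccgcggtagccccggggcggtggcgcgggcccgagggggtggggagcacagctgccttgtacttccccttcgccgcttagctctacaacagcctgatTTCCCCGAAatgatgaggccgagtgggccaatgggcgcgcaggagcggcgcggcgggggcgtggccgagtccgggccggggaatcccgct
Of 12 windows of 11 GBP and IRG genes in the table, 10 held the ISRE core and 6 a GAS match. Over all 32851 windows the shares were 2.98% for the ISRE core and 7.02% for GAS. Gbp7, Tgtp1, Tgtp2 and Irgm2 also had a GAS match before an ISRE match, and Ifi47 had neither in this window. A match is a description of the letters, not a measured binding site. Gbp4, Gbp6, Gbp8, Gbp9, Gbp10 and Iigp1 have no entry.

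The silent cells were the larger share of CD4 cells in every library. They made up 61.1% of 2670 CD4 cells in Ga (59.2 to 62.9, Clopper-Pearson) and 62.1% of 3317 in Gc (60.4 to 63.8). The share was 83.2% of 1838 in Gb (81.5 to 84.9), and in the second matrix 84.6% of 2521 for Ha and 86.4% of 2320 for Hb. Ga and Gc lie together below the other 3 libraries, with intervals that do not overlap theirs. These values were selected on the 9 genes and are a description. Just outside the rule, with exactly 1 UMI of the 9 genes, lay 495 cells in Ga, 596 in Gc and 181 in Gb. Admitting them raised the shares to 79.6% in Ga, 80.1% in Gc and 93.1% in Gb. Requiring in addition 0 UMIs of 16 further TCR response genes lowered them to 34.0% in Ga, 35.4% in Gc and 54.4% in Gb.

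Zero UMIs of 9 genes do not show that a receptor was never engaged, since a cell is only sampled. The median silent cell held 8199 UMIs in Ga, 8078 in Gc and 7765 in Gb, and the median other CD4 cell 9238, 9088 and 8498. With every cell thinned to 3000 UMIs, which left out 81 to 94 CD4 cells of each of these libraries, 76.3% of CD4 cells in Ga, 77.8% in Gc and 92.1% in Gb held none of the 9 genes. The split between libraries thus had the same order at equal depth. Any pair of libraries had 2 to 14 barcodes in common, with at most 3 among silent cells.

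By their RNA the silent cells of all 5 libraries carried the genes of CD4 T cells and of naive T cells. All 8 measured genes of the CD4 T cell list were present, but Cd4 is among them and was required by the rule. Of the 6 genes of the naive list, 5 were measured. Levels are given as CPM, the UMIs of a gene per 1000000 UMIs of the same set of cells. Cd3e, a signalling chain of the TCR complex, stood at 370 CPM in Ga, 372 in Gc and 387 in Gb, with 396 and 408 for Ha and Hb. Lef1 and Tcf7, transcription factors of naive T cells, stood at 1775 and 1121 CPM in Ga, 1773 and 1152 in Gc, and 1819 and 1161 in Gb. The 18 quiescence genes, with Klf2, S1pr1, Il7r and Foxp1 among them, summed to 16857 CPM in Ga, 17691 in Gc and 17487 in Gb, and none was 2-fold apart in both ratios against Gb. Cd8a was at or below 0.226 CPM in each library. The 2 genes of the CD8 list, Cd8a and Cd8b1, summed to 8.84 CPM in Ga, 6.79 in Gc and 9.73 in Gb. For Ha and Hb the sums were 8.30 and 10.0 CPM, so Cd8b1 held most of this RNA in every library. In Gc, Trac, the constant part of the TCR alpha chain, stood at 3738 CPM against 7025 to 7805 in the other libraries. Other CD4 cells of Gc had a like low level (4092 CPM), so Trac sets the whole library apart and its part in the results was not tested.

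The interferon-inducible GTPases were higher in silent cells of Ga and Gc than in those of Gb. All 16 measured GBP and IRG genes were at least 2-fold higher in silent cells of both Ga and Gc than in those of Gb, and none was lower. A gene counted as measured with at least 100 UMIs in silent cells of the 3 libraries together, and 0.5 was added to each count in ratios. Gbp10 reached this minimum through Ga and Gc, with 55 and 72 UMIs there and 6 in Gb. Over all 10996 measured genes, 56 or 0.509% were at least 2-fold higher in both ratios and 16 or 0.146% were at least 2-fold lower. Summed, the 17 genes of both families in the files gave 2018 CPM in Ga (1994 to 2042, exact Poisson) and 2399 in Gc (2376 to 2423). They gave 688 CPM in Gb (673 to 703), 642 in Ha and 727 in Hb. The ratio to Gb was 2.93-fold for Ga (log2 1.55, 1.52 to 1.59) and 3.49-fold for Gc (log2 1.80, 1.77 to 1.84). Gb, Ha and Hb lie close together, and Ga and Gc stand well above them.

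The 4 genes that mark these cells were proposed with these data known, and their values are a description. Gbp2, a GBP that is recruited to pathogen vacuoles (chr3:142620602-142638008, GENCODE M21 on GRCm38), stood at 144 CPM in Ga and 201 in Gc, against 23.4 in Gb, 23.3 in Ha and 30.3 in Hb. This is 6.16-fold in Ga over Gb (log2 2.62, 2.44 to 2.81) and 8.58-fold in Gc over Gb (log2 3.10, 2.93 to 3.28). Gbp4 (chr5:105115767-105139586) stood at 210 CPM in Ga and 252 in Gc, against 57.0 in Gb, 58.6 in Ha and 63.6 in Hb. Its log2 ratio to Gb was 1.88 for Ga and 2.14 for Gc. Iigp1 (chr18:60376027-60392634), also called Irga6, an IRG that coats parasite vacuoles, was the GTPase with the most UMIs in Ga and Gc, at 323 and 457 CPM, against 82.6 in Gb, 55.5 in Ha and 73.7 in Hb, with log2 ratios to Gb of 1.97 and 2.47. Irgm1 (chr11:48861968-48871683), a regulator of the other IRGs, stood at 150 CPM in Ga and 165 in Gc, against 52.9 in Gb, 47.6 in Ha and 55.9 in Hb, which is 2.83-fold and 3.12-fold over Gb. For each of the 4, both Ga and Gc lie above all 3 other libraries, and Gc lies above Ga.

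The other GBPs spread from small to large ratios. Gbp10, at 3.98 CPM in Ga, 4.18 in Gc and 0.495 in Gb, had log2 ratios of 2.91 (1.80 to 4.52) in Ga over Gb and 2.97 in Gc over Gb. The first was the largest GBP ratio in Ga over Gb, but it rests on 6 UMIs in Gb. Its interval includes the ratios of Gbp2 and Gbp5. Gbp5, which promotes inflammasome assembly, stood at 33.5 CPM in Ga and 51.4 in Gc against 5.85 in Gb, log2 ratios of 2.51 and 3.12. Gbp6 was 3.99-fold and Gbp3 3.81-fold higher in Ga than in Gb. Gbp7, Gbp8 and Gbp9 had log2 ratios in Ga over Gb of 1.48, 1.33 and 1.23. Gbp2b was near absent, with 3 UMIs in silent cells of the 3 libraries together. The median over the 9 measured GBPs was 1.93 in Ga over Gb and 2.18 in Gc over Gb, beside medians over all measured genes of 0.01 and 0.00.

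The IRGs summed to more UMIs than the GBPs, at 1266 against 752 CPM in Ga, and their median ratio was smaller. Igtp (Irgm3) stood at 239 CPM in Ga and 258 in Gc against 102 in Gb. Irgm2 stood at 173 and 189 CPM against 73.3, and Ifi47 (Irgd) at 213 and 219 against 99.3. Ifi47 had the smallest ratios of both families, at log2 1.10 and 1.14. Tgtp1 and Tgtp2 had log2 ratios in Ga over Gb of 1.55 and 1.40. The median over the 7 IRGs was 1.40 in Ga over Gb and 1.47 in Gc over Gb. Tgtp1 and Tgtp2 are near copies, Gbp4, Gbp8 and Gbp9 overlap in the annotation, as do Igtp and Irgm2, and how the counting split their reads is uncertain.

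**Figure D1:**
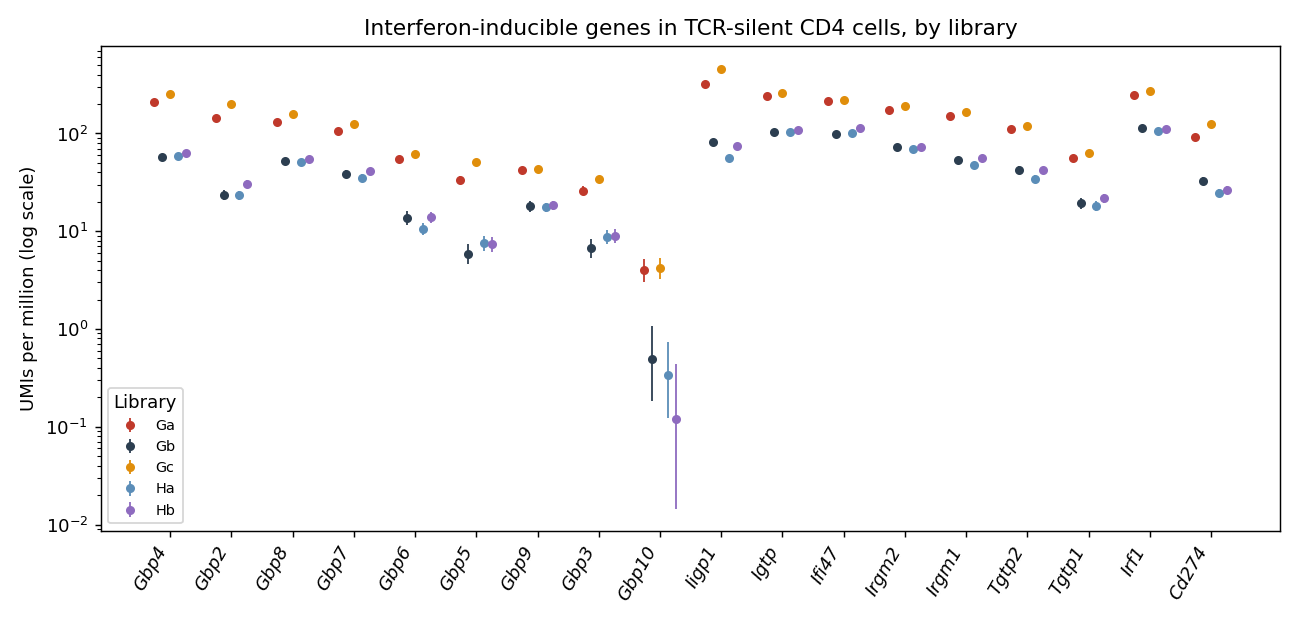
UMIs per 1000000 UMIs (log axis) of 16 GBP and IRG genes and of Irf1 and Cd274 in TCR-silent CD4 cells, 1 point per library with its exact 95% Poisson interval. For each gene the points of Ga and Gc lie above those of Gb, Ha and Hb.

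Ranked over all genes by the smaller of the 2 log2 ratios, the list was led by these families. The ranking left out 1165 genes whose CPM in barcodes without Cd3e, Cd3d, Trac and Cd4 was over 4 times that of silent cells, as possible free RNA, and 16 of the 56 higher genes were not ranked. The globins were among those 16, as were Irf9, Rtp4, Xaf1, Tnfrsf9, Irf8 and Cish, so the part of free RNA in the ratios of these genes was not tested. The barcodes behind this filter were few, at 15 in Ga, 7 in Gb and 30 in Gc, and in Gb 3 UMIs made 85.2 CPM. For genes as scarce as Tnfrsf9, Irf8 and Cish even a lone UMI passes the cutoff, so leaving them out does not show free RNA. Of 9694 ranked genes, Gbp10, Gbp2, Gbp5, Gbp6, Iigp1, Gbp3 and Gbp4 took 7 of the first 9 places, and the last of the 16, Ifi47, took place 35. The 12 highest also held the predicted genes Gm4951, Gm4841, F830016B08Rik and Gm4070. Gbp10, Gm4841 and F830016B08Rik reached the count minimum through Ga and Gc, with 6, 9 and 12 UMIs in Gb. Gm4951 stood at 56.7 CPM in Ga and 73.3 in Gc against 7.01 in Gb. Gm4951, Gm4841 and F830016B08Rik are annotated on chromosome 18, as is Iigp1. Gvin1, a very large interferon-inducible GTPase named here after its values were seen, stood at 77.2 CPM in Ga and 98.1 in Gc against 26.0 in Gb. Of the 56 genes at least 2-fold higher in both ratios, 25 were on the interferon lists used here. Against Gb alone, 49 of 10086 genes (0.486%) were at least 2-fold higher in Ga and 71 of 10286 (0.69%) in Gc.

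The 16 lower genes were scarce in silent cells, at no more than 27.9 CPM in Gb, and 5 of them were not ranked. Slc7a11, a cystine transporter, stood at 16.6 CPM in Gb, 0.869 in Ga and 1.39 in Gc, and at 0.452 in Ha and 0.720 in Hb. Gpnmb and Cybb, genes of macrophages, stood at 20.4 and 9.23 CPM in Gb against 2.97 and 2.10 in Ga. Gpnmb stood at 6.10 CPM in Ha and 2.22 in Hb, and Cybb at 1.86 and 2.04. Fnip2, B3galt1, 1700062C10Rik, Dgki, Gstm1, St18, Rnf128, Ralyl and Ampd3 completed the 12 lowest, of which Ampd3 was under 2-fold. Of these 12, all but Ralyl reached the count minimum only with the UMIs of Gb, so the filter favored genes high in Gb. All 12 also stood lower in Ha and Hb than in Gb, so Gb was the high library for these genes. Lyz2, of the myeloid list and not ranked, stood at 27.4 CPM in Gb against 2.17 in Ga and 3.08 in Gc. Over the 8 myeloid markers the sums were 60.3 CPM in Gb, 42.3 in Ga, 34.5 in Gc, and 43.2 and 39.0 for Ha and Hb, and their part in these ratios was not tested. The 8 fibroblast markers summed to between 2.77 and 6.76 CPM over the 5 libraries. Against Gb, 13 genes (0.129%) were at least 2-fold lower in Ga and 27 (0.262%) in Gc. Without cells over 20000 UMIs or with markers of other cell types these counts were 5 and 14.

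**Figure D2:**
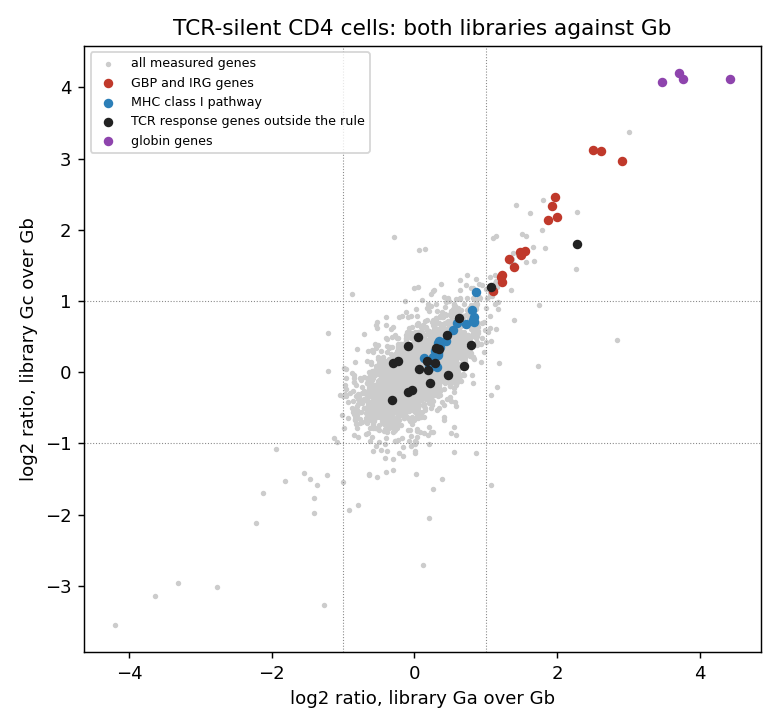
Each point is 1 of the measured genes, placed by its log2 ratio in TCR-silent cells of Ga over Gb (x axis) and of Gc over Gb (y axis), with dotted lines at 2-fold. The GBP and IRG genes lie beyond both lines at the upper right, the globin genes beyond them, and the genes of the MHC class I pathway above 0 on both axes; both axes share library Gb.

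Globin RNA was the other large difference in sum, and a few barcodes made up most of it. The erythroid list summed to 875 CPM in silent cells of Ga and 1102 in Gc, against 65.2 in Gb, 68.9 in Ha and 45.6 in Hb, and 4 of its 5 measured genes were 2-fold higher in both ratios. Most of it sat in single barcodes. In Ga, 1 silent barcode held 11422 of 12022 globin UMIs, and in Gc 4 barcodes held 17720 of 18912. The share of silent cells with a globin UMI was 27.5% in Ga and 40.4% in Gc. It was 35.8% in Gb, 40.9% in Ha and 28.4% in Hb, so this share did not set Ga and Gc apart. In silent cells without any globin UMI, the GTPase genes stood at 2081 CPM in Ga, 2413 in Gc and 685 in Gb, log2 ratios to Gb of 1.60 and 1.81, so the ratios were as large without the cells that carried globin.

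Of 12 genes of the interferon-gamma signalling chain, 2 were at least 2-fold higher in both ratios, namely Irf1 and Irf9. The median over the 12 was 0.09 in Ga over Gb and 0.25 in Gc over Gb. Irf1 stood at 249 CPM in Ga and 273 in Gc, against 113 in Gb, 106 in Ha and 112 in Hb. Irf9, a subunit of the transcription complex that type I interferon activates, passed the fold but not the free RNA filter of the ranking, and stood at 74.0 and 73.3 CPM, against 34.7, 35.7 and 38.6. Ga and Gc lie above the other 3 libraries for both genes. The receptor chain Ifngr1 stood at 650 CPM in Ga, 669 in Gc and 685 in Gb, and Ifngr2 at 94.0, 90.2 and 88.9. The kinase gene Jak1 stood at 946, 911 and 999 CPM, and Jak2 at 108, 111 and 104. The inhibitor Socs1 stood at 57.4 CPM in Ga and 63.8 in Gc against 36.6 in Gb, log2 ratios of 0.65 and 0.80. Stat2, Irf2 and Socs3 had log2 ratios of 0.56, 0.33 and 0.11 in Ga over Gb and of 0.87, 0.42 and 0.62 in Gc over Gb. The inhibitors Ptpn2 and Pias1 had -0.0048 and -0.03 in Ga over Gb, and 0.01 and 0.08 in Gc over Gb.

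The silent cells themselves held almost no interferon RNA. Ifng gave 6 UMIs in silent cells of Ga, 10 in Gc and 1 in Gb, and 7 and 10 for Ha and Hb. Other CD4 cells held 21 Ifng UMIs in Ga, 49 in Gc and 8 in Gb, and 3 and 5 for Ha and Hb, and 22 of the 49 in Gc came from 1 cell. These sets differ in size, at 1039 cells in Ga, 1257 in Gc and 308 in Gb. As CPM the level was 2.01 in Ga, 3.78 in Gc and 2.88 in Gb, so Ga was not above Gb. Cells with a UMI of Trdc, the constant part of the gamma delta receptor, held 23 Ifng UMIs in Ga, 31 in Gc and 12 in Gb, and 9 in either library of the second matrix. Their levels were 2.07 CPM in Ga, 2.44 in Gc and 2.06 in Gb. The remaining barcodes that passed the filters held 5 Ifng UMIs in Ga, 7 in Gc and 12 in Gb. No UMI of Ifnb1, Ifna4, Ifnl3 or Il12b was found in silent cells of the 3 libraries. Of the cytokines on the same list that induce interferon-gamma, Il27 gave 6 UMIs in Ga, 13 in Gc and 11 in Gb, Il18 gave 4, 5 and 3, and Il12a gave 2, 0 and 0.

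Fewer of the other interferon targets reached 2-fold. Of 13 measured targets outside the GTPase families, Cd274 and Cxcl10 were at least 2-fold higher in both ratios, 11 were above 0 in both, and the median was 0.65 in Ga over Gb and 0.88 in Gc over Gb. Cd274, which encodes the inhibitory ligand PD-L1, stood at 93.0 CPM in Ga and 125 in Gc, against 32.6 in Gb, 24.5 in Ha and 26.4 in Hb. Samhd1, a nucleotide hydrolase, stood at 378 CPM in Ga and 434 in Gc against 212 in Gb, and Ly6a (Sca-1) at 225 and 268 against 138. Parp9 and Parp14 had log2 ratios of 0.91 and 0.83 in Ga over Gb and of 1.04 and 1.05 in Gc over Gb, so they reached 2-fold in Gc and not in Ga. Among 22 measured genes of the type I interferon list, 5 were 2-fold higher in both (Rtp4, Ifit3b, Oasl2, Zbp1 and Xaf1, of which Rtp4 and Xaf1 were left out of the ranking as possible free RNA). Of the 22, 19 were above 0 in both, with a median of 0.55 and 0.56. Ifit2, of the same list, was not higher, at 89.2 CPM in Ga and 86.7 in Gc against 98.3 in Gb. Isg15 stood at 8.33 and 9.23 CPM against 5.94.

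All 21 genes of the MHC class I pathway were above 0 in both ratios, which share library Gb, and none was 2-fold higher in both. Of all 10996 measured genes, 4113 or 37.4% were above 0 in both. The 21 genes summed to 5962 CPM in Ga and 5860 in Gc, against 4568 in Gb, 5416 in Ha and 5287 in Hb, so Gb was the low library for the list and Ha and Hb lay between. Nlrc5, the transactivator of the pathway, had the largest ratio of the 21 in Gc over Gb, at 319 CPM in Gc and 266 in Ga against 146 in Gb. The peptide transporter gene Tap1 stood at 109 CPM in Ga and 103 in Gc against 61.9 in Gb, and the immunoproteasome gene Psmb9 at 98.7 and 89.8 against 55.0. B2m stood at 1155 CPM in Ga and 1157 in Gc against 851 in Gb, but at 1065 in Ha and 1008 in Hb. H2-K1 stood at 1136 and 1093 CPM against 943 in Gb, and at 1133 and 1122 for Ha and Hb. For these 2 genes Ga and Gc lay nearer to Ha and Hb than to Gb.

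**Figure D3:**
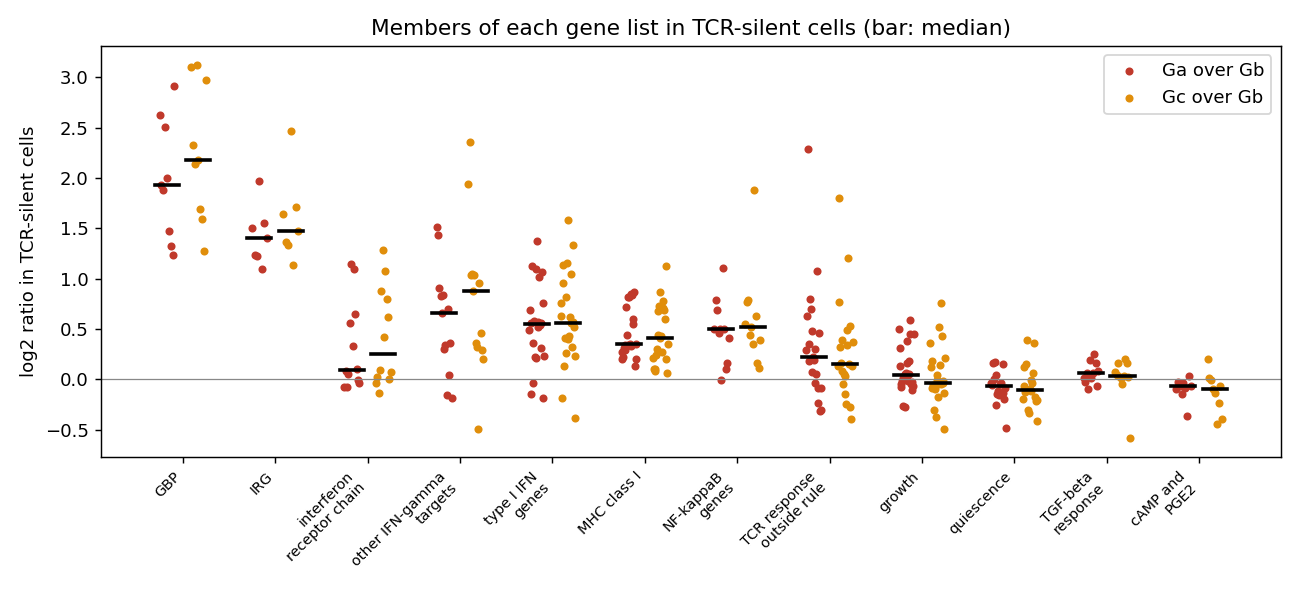
Log2 ratios in TCR-silent cells of Ga over Gb and of Gc over Gb for the measured members of 12 gene lists, 1 point per gene with the median as a bar. The GBP and IRG members all lie above 1, the medians of the other interferon, MHC class I and NF-kappaB lists lie between 0.09 and 0.88, and the growth, quiescence, TGF-beta and cAMP lists lie around 0.

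Genes of the TCR response that the rule did not use differed little in sum between libraries in the silent cells, while a subset of 16 of them was higher in Ga and Gc than in Gb. The 31 genes summed to 486 CPM in Ga and 480 in Gc, beside 464 in Gb, 506 in Ha and 486 in Hb. The log2 ratio to Gb was 0.07 for Ga (0.02 to 0.12) and 0.05 for Gc (-0.0012 to 0.10). Of 21 measured members, Tnfrsf9 and Irf8 were at least 2-fold higher in both ratios. Both were left out of the ranking by the free RNA filter, which a lone UMI can trigger for genes this scarce. Tnfrsf9 reached the count minimum through Ga and Gc, with 80 and 71 UMIs there and 14 in Gb. Tnfrsf9, the costimulatory receptor 4-1BB, stood at 5.80 CPM in Ga and 4.12 in Gc against 1.15 in Gb, and at 66.1 in other CD4 cells of Ga. Irf8 stood at 3.19 and 3.48 CPM against 1.48. Nfkbid, a regulator of NF-kappaB, stood at 15.4 and 15.2 CPM against 13.5, and Cd40lg, the CD40 ligand of helper T cells, at 137 and 130 against 170. The subset of 16 genes leaves out members such as Cd40lg, Rel and Dusp2. It summed to 89.3 CPM in Ga (84.3 to 94.4) and 86.5 in Gc (82.2 to 91.0) against 70.1 in Gb. The log2 ratios were 0.35 (0.22 to 0.48) and 0.30 (0.18 to 0.43). The sum was 80.4 CPM in Ha (76.3 to 84.7) and 73.8 in Hb, so the interval of Ha overlaps those of Ga and Gc. At 3000 UMIs per cell, 20.7% of silent cells in Ga and 20.6% in Gc held a UMI of these 16, beside 16.8% in Gb, 19.0% in Ha and 17.1% in Hb.

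Growth genes differed little in sum, and the NF-kappaB genes were higher in sum. The 25 growth genes summed to 1992 CPM in Ga and 1915 in Gc beside 1962 in Gb, and none of the 24 measured was 2-fold apart in both ratios. The 11 NF-kappaB genes summed to 995 CPM in Ga and 1053 in Gc, against 737 in Gb, 804 in Ha and 756 in Hb. Of them, Bcl3 was at least 2-fold higher in both ratios, at 20.4 and 35.0 CPM against 9.48. Of 9 measured genes downstream of common gamma chain cytokines, 1 was 2-fold higher in both, namely Cish, an inhibitor of cytokine signalling that was likewise not ranked, at 3.33 and 3.13 CPM against 0.907. Cish reached the count minimum through Ga and Gc, with 46 and 54 UMIs there and 11 in Gb. Pim1, a kinase of the same list, stood at 191 and 209 CPM beside 199. None of the 11 TGF-beta response genes and none of the 9 cAMP and prostaglandin E2 genes was 2-fold apart in both.

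Within Ga and Gc, the silent cells held GTPase RNA at a level near or above that of the CD4 cells with rule gene UMIs. In Ga the GTPase sum was 2018 CPM in silent and 1642 in other CD4 cells (log2 0.30, 0.27 to 0.32), and in Gc 2399 and 2134 (log2 0.17, 0.15 to 0.19). In Gb both sets stood near each other, at 688 and 695 CPM (log2 -0.01, -0.09 to 0.06). With cells thinned to 3000 UMIs the Ga ratio was 0.22 and the Gc ratio 0.06. With the further requirement of no UMI of the 16 TCR genes they were 0.14 and 0.20, and with 1 rule gene UMI allowed 0.52 and 0.32. The IRGs had the larger ratios, with log2 silent over other of 0.41 in Ga and 0.31 in Gc, against 0.13 and -0.02 for the GBPs. Gbp5 went the other way, at 33.5 in silent against 59.3 CPM in other cells of Ga, and 51.4 against 116 in Gc, and so did Cd274, at 93.0 against 147 and 125 against 185.

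The TCR response lists set the same cells far apart. Outside the rule, 22 of 25 measured TCR response genes in Ga and 24 of 27 in Gc were at least 2-fold lower in silent than in other CD4 cells. Over all genes, 413 of 10123 (4.08%) were at least 2-fold lower in Ga and 415 of 10470 (3.96%) in Gc, and 18 (0.178%) and 14 (0.134%) at least 2-fold higher. These cells were divided by genes of the same response, so this is a description. Ranked by the smaller ratio, the 10 lowest in silent cells were Cntn1, Cdkn1a, Bcat1, H2-Eb1, Lad1, Pdcd1lg2, H2-Ab1, Soat2, A430093F15Rik and Atf5, and no GTPase of either family was among them. All of them but A430093F15Rik reached the count minimum only with the UMIs of the other CD4 cells. Bcat1, an enzyme of branched-chain amino acid breakdown, stood at 1.38 CPM in silent against 70.0 in other cells of Ga, and 1.39 against 66.4 in Gc. Pdcd1lg2, the gene of PD-L2, stood at 1.23 against 27.7 CPM in Ga and 1.34 against 26.4 in Gc. Growth genes summed to 1992 CPM in silent and 3631 in other cells of Ga. The 10 genes highest in silent cells were Mr1, Ccdc152, Ncald, Gm26583, Gm4577, Lrsam1, 1810041H14Rik, Lair1, Gm15441 and BC051226, of which Ccdc152 stood at 15.2 against 7.86 CPM in Ga and 15.6 against 6.94 in Gc.

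The number of rule gene UMIs in a cell did not order its GTPase level evenly. In Ga the GTPase genes stood at 2018 CPM with 0 UMIs of the 9 genes, 1983 with 1, 2200 with 2 to 4 (223 cells) and 967 with 5 or more (321 cells). In Gc the levels were 2399, 2430, 3073 and 1345 CPM. Silent cells thus lay below those with 2 to 4 in both libraries. Per cell, those with 2 to 4 held 20.9 GTPase UMIs in Ga and 28.8 in Gc, against 17.1 and 20.1 in silent cells. Cells with 5 or more thus held the lowest level in both libraries. They were also larger, with a median of 10664 UMIs in Ga and 10613 in Gc, yet per cell they held 11.9 GTPase UMIs in Ga against 17.1 in silent cells, and 17.5 against 20.1 in Gc. The TCR response genes outside the rule ran the other way, at 486, 546, 669 and 3094 CPM in Ga and 480, 537, 652 and 3116 in Gc. In the cells of Ga with 5 or more, Irgm2 stood at 47.5 CPM, while Gbp5 reached 72.8 and Cd274 213.

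**Figure D4:**
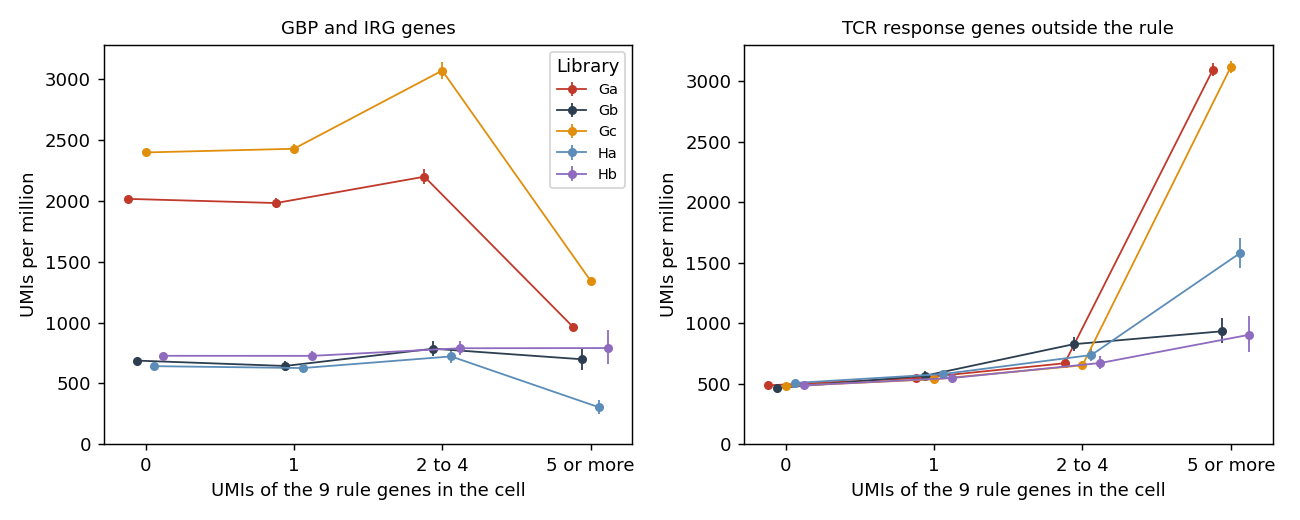
UMIs per 1000000 UMIs of the GBP and IRG genes (left) and of TCR response genes outside the rule (right) in CD4 cells grouped by their UMIs of the 9 rule genes, 1 line per library with exact 95% Poisson intervals. In Ga and Gc the GTPase level is highest at 2 to 4 UMIs and lowest at 5 or more, where the TCR response genes are highest; the groups of 5 or more hold 33, 22 and 13 cells in Gb, Ha and Hb.

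The higher GTPase level was spread over many silent cells. At 3000 UMIs per cell, the median silent cell held 4 GTPase UMIs in Ga and 5 in Gc, against 1 in each of Gb, Ha and Hb. At least 1 was found in 88.9% of them in Ga and 90.6% in Gc, against 73.6% in Gb, 76.8% in Ha and 76.7% in Hb. At least 10 were found in 21.8% and 28.1%, against 2.33%, 1.03% and 2.79%. Silent cells with no GTPase UMI made up 11.1% in Ga and 9.43% in Gc, so a part of the cells lay in the range common in Gb. The tenth of cells with the most held 36.7% of GTPase UMIs in Ga, 34.2% in Gc and 39.5% in Gb.

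Single genes followed the same order at equal depth. Gbp2 was found in 22.7% of 1574 silent cells in Ga (20.7 to 24.9) and 31.8% of 1994 in Gc (29.8 to 33.9), against 5.07% of 1459 in Gb (4.003 to 6.33). Without thinning the shares were 38.7%, 49.1% and 11.3%. Silent cells with a Gbp2 UMI held on average 10.9 UMIs of the remaining GTPases in Ga (SD 8.15, 358 cells) and those without 4.14 (SD 4.51, 1216 cells). In Gc the means were 11.1 and 4.69. Without thinning, barcodes that lacked Cd3e, Cd3d, Trac and Cd4 held Gbp2 in 1 of 15 in Ga (0.169% to 31.9%), 2 of 30 in Gc (0.818% to 22.1%) and 0 of 7 in Gb (up to 41.0%), at median depths of 682, 768 and 1629 UMIs. Of all GTPase genes these barcodes held 8 UMIs in Ga (216 CPM), 43 in Gc (1278 CPM) and 10 in Gb (284 CPM), against 2018, 2399 and 688 CPM in silent cells. The level in Gc was thus over 4 times that in either of the other libraries, in barcodes that are few and shallow. Globin UMIs took unequal parts of their totals, at 393930 CPM in Ga, 573800 in Gb and 220230 in Gc. This lowers the GTPase CPM least in Gc and so widens the contrast. The part of free RNA in the GTPase level of Gc was not tested.

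**Figure D5:**
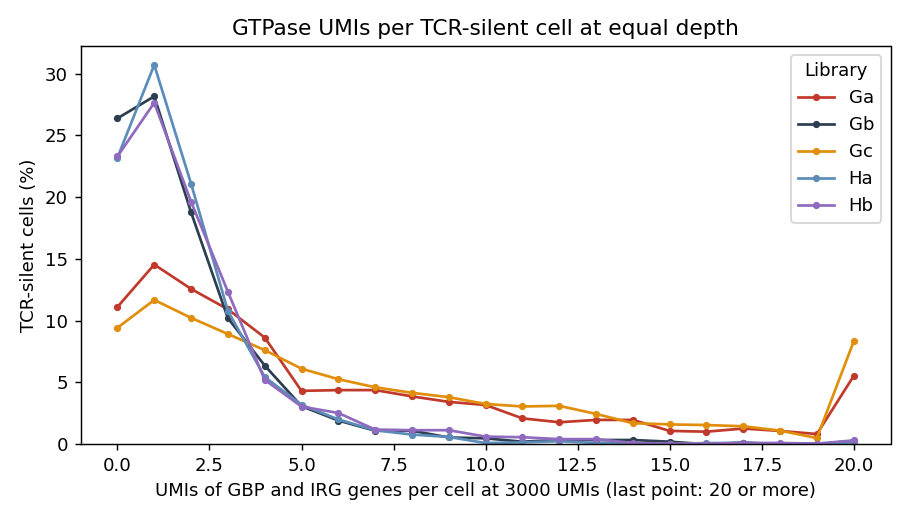
Share of TCR-silent cells (y axis, %) by their number of GBP and IRG UMIs after thinning to 3000 UMIs per cell (x axis), 1 line per library, with 20 or more in the last point. The lines of Ga and Gc extend to the right of those of Gb, Ha and Hb, whose cells mostly hold 0 to 3.

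Subsets of silent cells shared the difference. The OT-II receptor uses Valpha2 and Vbeta5, whose segments belong to the Trav14 and Trbv12 families. A Trbv12 UMI was found in 25.9% of silent and 27.2% of other CD4 cells in Ga, and in 19.7% and 20.8% in Gc. The shares were 31.2% and 30.8% in Gb, 32.1% and 31.1% in Ha, and 28.1% and 28.9% in Hb. The intervals of silent and other cells overlap in all 5 libraries, and Gc is the lowest. At 3000 UMIs per cell the shares of silent cells were 11.3% in Ga, 8.58% in Gc and 13.02% in Gb. In silent cells with Trbv12 and no other Trbv segment, the GTPase level was 2054 CPM in Ga and 2513 in Gc against 712 in Gb. In those with another Trbv and no Trbv12 it was 2000.1 and 2247 against 708. The segment with the most UMIs after Trbv12-2 was Trbv26, at 14.4, 15.3 and 17.3 CPM. A Trav14 UMI was found in 4.05% of silent cells in Ga, 2.91% in Gc and 3.92% in Gb. Among silent cells with any Trav UMI, it was found in 14.1% of 469 in Ga, 11.7% of 511 in Gc and 13.2% of 456 in Gb. Most cells with a Trav UMI thus held only other Trav segments, and the reason was not tested. Among silent cells with any Trbv UMI, Trbv12 was found in 66.2% of 637 in Ga, 59.6% of 681 in Gc and 71.7% of 667 in Gb.

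Ly6c1, a surface protein of part of the naive CD4 pool, split the silent cells more. Those with a Ly6c1 UMI, 66.3% in Ga and 67.2% in Gc, stood at 2282 and 2613 GTPase CPM, and those without at 1462 and 1931. In Gb the 2 subsets stood at 710 and 624. Silent cells with 2 or more UMIs of 7 memory-associated genes held 1402 CPM in Ga and 1911 in Gc against 564 in Gb, and those with none 2191 and 2540 against 734. The log2 ratio to Gb lay between 1.23 and 1.68 for Ga and between 1.63 and 1.88 for Gc over these 4 subsets.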

How the data were processed

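Single-cell RNA of 5 mouse samples was used as 2 deposited matrices of raw UMI counts per gene and barcode. They were made with Cell Ranger 6.0.0 and build mm10 per the submitters' processing notes, whereas the matrix headers name version 7.1.0. The sources used here do not give how the libraries were aggregated. Barcodes were not tied to samples, and no doublet caller was run. Counts were summed over the cells of each library, and ratios used 0.5 added to each count. Genes needed 100 UMIs to be measured, over both sets of cells compared or, for both ratios together, over Ga, Gb and Gc. Intervals (exact Poisson, Clopper-Pearson or exact binomial) cover counting error only. The ratio script was tested on simulated counts. Alternatives changed the cell filter, depth, rule, doublet-like cells, Cd4 minimum, denominator, cell weights and count minimum. The cells, markers and lists were chosen with earlier results of these data known. Named were all members of the GTPase and chain lists, members of other lists 2-fold apart in both ratios or among the 4 highest by CPM, and the ranked genes (12 each way between libraries, 10 within). Nlrc5, Tap1, Psmb9, Parp9, Isg15 and Gvin1 were chosen after their values were seen. 1 further gene of the chain is not reported here. Promoter windows came from RefSeq (GRCm38.p6). Python 3.11.15, numpy 2.4.6, scipy 1.17.1, pandas 2.3.3 and matplotlib 3.10.9 were used.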

Additional observations from a re-analysis of the deposited data

How the results depend on the processing

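Of 207 alternative values, 70 of the summary results and 63 of single genes and segments stayed within their interval or count range, 59 and 15 did not, and no called ratio changed its direction. The GTPase log2 ratio of Ga over Gb was 1.51 with no UMI of 16 further TCR genes, 1.64 without doublet-like and mixed cells, 1.60 with 2 UMIs of Cd4 and 1.60 at 3000 UMIs. Without cells with globin RNA, an alternative chosen after seeing the data, it was 1.60. For Gc over Gb the first 4 gave 1.84, 1.87, 1.87 and 1.86. Silent over other in Ga gave 0.14 (16 further genes), 0.52 (1 rule gene UMI allowed), 0.36 (no doublet-like cells), 0.25 (2 UMIs of Cd4), 0.34 (no globin), 0.22 (3000 UMIs) and 0.23 (cells weighted equally). In Gc it gave 0.20, 0.32, 0.0876, a value within its interval for Cd4, then 0.12, 0.0631 and 0.0678. TCR genes outside the rule gave 0.0089 in Ga over Gb and -0.0329 in Gc over Gb with the 16 further genes, which are part of that list. Their silent over other ratio in Ga was -1.61 (16 further genes), -2.17 (1 UMI allowed), -1.48 (2 UMIs of Cd4), -1.60 (no globin), -1.46 (3000 UMIs) and -1.49 (equal weights). In Gc it was -2.21 (1 UMI allowed), -1.55 (no doublet-like cells), -1.45, -1.63, -1.47 and -1.43. The silent share was 34.0%, 54.4% and 35.4% in Ga, Gb and Gc with the 16 further genes, 79.6%, 93.1% and 80.1% with 1 UMI allowed, and 76.3%, 92.1% and 77.8% at 3000 UMIs. Without doublet-like cells it was 63.2% in Ga and 64.0% in Gc. A minimum of 20 UMIs gave 226 genes higher and 181 lower in Ga over Gb, and 262 and 229 in Gc over Gb, since more scarce genes enter. Genes lower in Ga numbered 2 (16 further genes), 5 (no doublet-like cells), 4 (2 UMIs of Cd4) and 2 (3000 UMIs), and in Gc 11, 14, 16 and 7. The cause of the other changes was not tested. No paired analysis was possible because no library could be tied to a sample and the result comes from no test. Genes under 100 UMIs were not resolved at this depth.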
